A study of Aedes albopictus with 6 samples.

Results

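A cluster of 395 small RNA tags lies within 67.6 kb of scaffold NW_021839130.1 of the Asian tiger mosquito, Aedes albopictus, from base 50783825 to base 50851441. It comprises every tag of the deposited table that falls between these bases, 395 of 22773 tags in all. The libraries were made from the whole bodies of 2-day-old adults, 3 from males and 3 from virgin females. No source used here gives the strain. The table holds 1 value column per sex, so each value below is a single value for that sex with no replicate check and no test. It lists only tags at least 2-fold apart between the sexes, so the direction of a tag describes the list and is not independent evidence, and tags of the cluster that differ less were not analysed here.

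PIWI-interacting RNAs (piRNAs) are small RNAs that guide Piwi-family proteins to matching transcripts and are best known for silencing transposons in the germ line. Many are cut from long precursor transcripts of genomic regions called piRNA clusters, so that tags from a cluster lie side by side or overlap along the genome. Aedes mosquitoes carry an enlarged set of Piwi-family proteins and also make piRNAs in somatic tissues. All tags here were of piRNA size, 24 to 32 nt, but neither strand nor sequence of the tags was used here, nor a gene or repeat annotation of the build. In whole bodies, fewer cells of a type and less RNA per cell cannot be told apart.

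Levels are given as TPM, here the count of a tag over its column total and scaled to a common sum, without correction for length. The column totals behind these values were 2060047 counts in males and 2677063 counts in females. Brackets give 95% intervals that cover counting error only.

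The cluster as a whole was higher in males. Its tags summed to 10694 counts in males and 4796 counts in females, or a TPM of 5191 (5093 to 5290) in males and of 1792 (1741 to 1843) in females. The male over female ratio was 2.90 (2.80 to 3.0), and 1.28 when the columns were scaled by edgeR's RLE factors over the listed tags. They made up 0.519% of the male total and 0.179% of the female total. Of the 395 tags, 289 (73.2%) were higher in males, against 31.7% of the whole list, and 106 (26.8%) were higher in females, against 68.3% of the list. Among the other 21909 listed nuclear tags 29.5% were higher in males, and their sum had a ratio of 0.971 (0.965 to 0.976), which turned to 1.03 with upper quartile factors. The other large cluster of the same scaffold, 369 tags starting at base 50168091, had 10.8% of its tags higher in males and a ratio of 0.434 (0.416 to 0.452). Of the pair of listed nuclear clusters with most tags, that of 433 tags on NW_021838599.1 had 23.1% of its tags higher in males and a ratio of 0.510 (0.486 to 0.534). The other, 425 tags on NW_021837489.1, had 46.6% of its tags higher in males and a ratio of 1.22 (1.17 to 1.27), which turned to 0.913 with TMM and 0.540 with RLE factors. These differences between clusters were not tested.

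In the cluster 199 tags (50.4%) were counted in both sexes, against 27.3% of the whole list. Another 134 tags (33.9%, against 17.0% of the list) were counted in males and listed at 0 in females, and 62 tags (15.7%, against 55.7%) were counted in females and listed at 0 in males. No tag has a count of 1 in either column, so a listed 0 can stand for 0 or 1. Among tags counted in both sexes, the 155 male-higher ones had a median fold of 4.68 (range 2.0 to 27.3), and the 44 female-higher ones a median fold of 3.51 (range 2.07 to 7.18). In the whole list, 6223 tags were counted in both sexes. Of these, 3358 were male-higher, with a median fold of 4.26, and 2865 female-higher, with one of 3.85. At least 8-fold apart were 33 of the 199 tags (16.6%) toward males, against 7.49% of such tags in the list, and 0 of 199 toward females, which allows a share of up to 1.84% (exact Clopper-Pearson), against 2.73%. These shares are taken over tags of either direction, so they also follow the balance of directions. That was 155 male-higher to 44 female-higher here, and 3358 to 2865 in the list. Overlapping tags were counted singly, and a lack of tags far toward females was not tested.

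**Figure D1:**
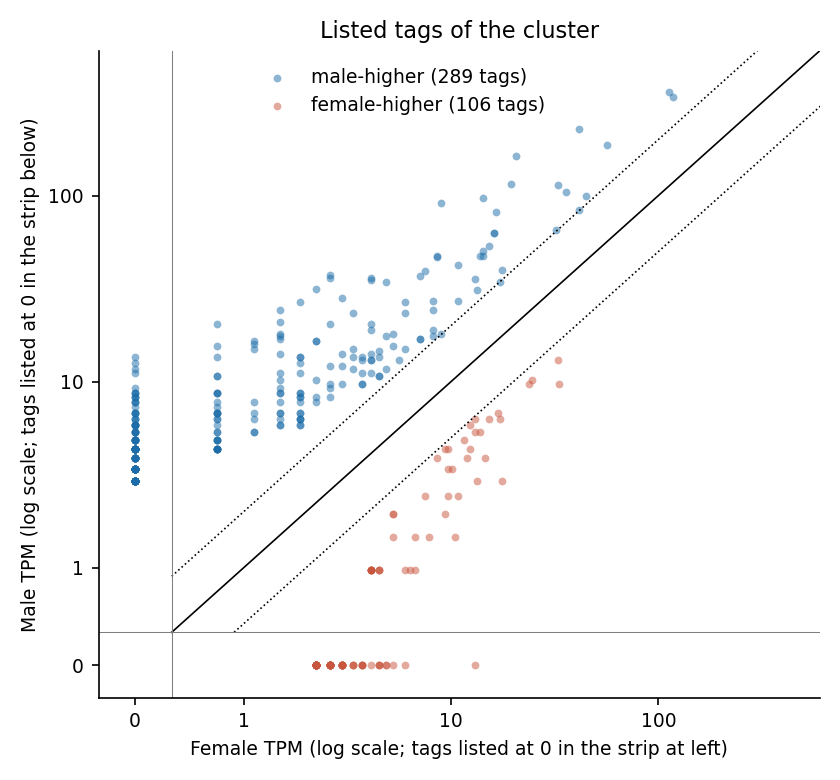
Each point is 1 of the 395 listed tags of the cluster, with TPM in males on the vertical axis and TPM in females on the horizontal axis, both on log scales, and tags listed at 0 in the outer strips. The solid line marks equal levels and the dotted lines the 2-fold edge of the list, and the tags with the highest values all lie on the male side.

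Several tags sat right at the edge of the list. Of the 155 male-higher tags counted in both sexes, 4 were less than 2.1-fold apart, and for 85 the interval of the ratio reached below 2. Neither number was counted for the whole list, so they are not particular to the cluster as far as known here. Closest to the edge were the 29-nt tag at 50816982 to 50817010, with 37 counts in males and 24 counts in females, and the 28-nt tag at 50828146 to 50828173, with 71 counts in males and 46 counts in females. At the outer limits of the cluster, the first tag inside, at 50783825 to 50783852, had 13 counts in males and 3 counts in females. The last tag inside, at 50851415 to 50851441, had 6 counts in males and 36 counts in females and lay 7.97 kb beyond its neighbour. The nearest listed tags outside lay 103 kb before the cluster, with 2 counts in males and 14 counts in females, and 18.1 kb after it, where the tag had 6 counts in females and was listed at 0 in males.

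The direction changed along the cluster. Tags starting 30 to 60 kb from its first base, 343 of the 395, held 95.8% of the male counts and 83.3% of the female counts of the cluster. There the ratio was 3.33 (3.21 to 3.45), with 268 tags higher in males and 75 higher in females. The 52 tags outside that stretch had 454 counts in males and 799 counts in females, a ratio of 0.738 (0.657 to 0.830), so their sum was lower in males. Of these counts, 90 in males and 401 in females came from the 13 tags at 22 to 23 kb, so the lower sum rests largely on them. Outside the stretch the direction was not uniform. The first 5 kb had a ratio of 1.52 (1.22 to 1.89) over 15 tags, which turned to 0.672 with RLE factors, and the 8 tags at 15 to 20 kb had a ratio of 1.16 (0.753 to 1.79), an interval that includes 1. A single tag at 5 to 10 kb had 7 counts in males and was listed at 0 in females. The limits of this stretch were set after the values were seen.

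In bins of 5 kb, the highest ratio, 4.85 (4.44 to 5.29), was at 40 to 45 kb, where the summed TPM was 1173 in males against 242 in females. The bin with the highest level in both sexes was at 55 to 60 kb, with 1287 TPM in males against 342 TPM in females and a ratio of 3.77 (3.49 to 4.06). Between 20 and 25 kb the order was turned, with 86.4 TPM in males against 164 TPM in females and a ratio of 0.526 (0.439 to 0.627). The next bin of 5 kb, at 25 to 30 kb, was also lower in males, at 0.453 (0.306 to 0.657). Of the 44 bins of 1 kb that held tags, 33 were higher in males and 11 higher in females. Such bins were not counted for the whole list.

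**Figure D2:**
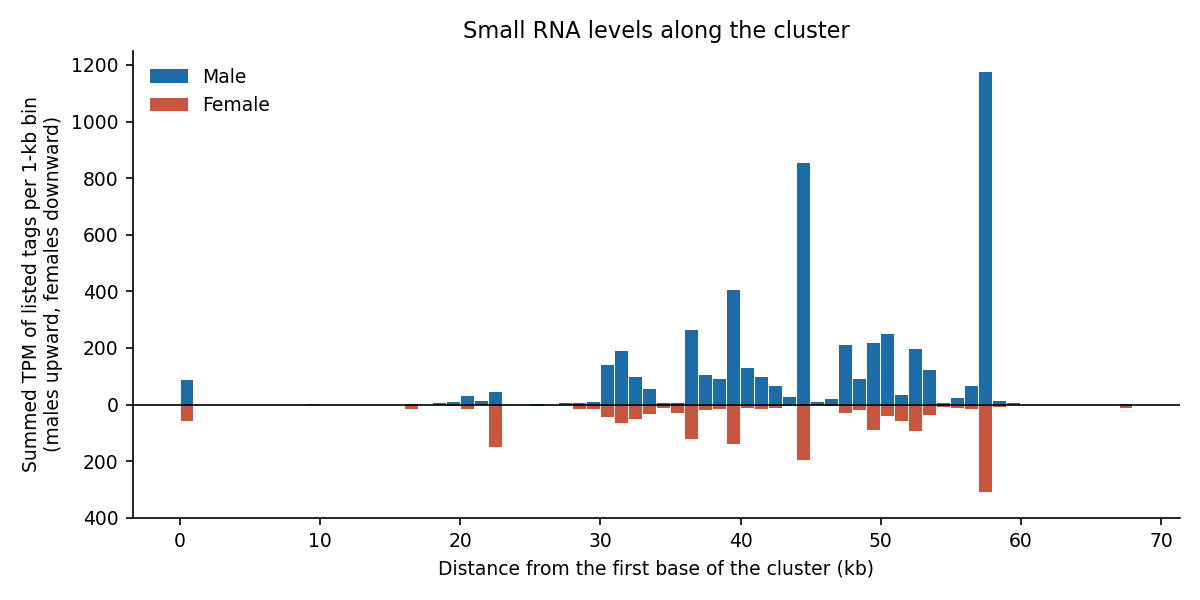
Bars give the summed TPM of listed tags per 1-kb bin along the cluster, males upward and females downward, against the distance from its first base in kb. The tallest bin, at 57 to 58 kb, reaches 1176 in males and 307 in females, and the bin at 22 to 23 kb is the tallest with more in females, at 43.7 in males and 150 in females.

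Tags that shared at least 1 base were merged to stacks, since such tags may not be independent. Strand was not used, so a stack can hold tags of both strands. The 395 tags formed 198 stacks that covered 6481 bases, 9.58% of the span. Of these, 123 were single tags and 75 held 2 or more. Summed by stack, 137 were higher in males and 61 higher in females, so 69.2% were male-higher, against 26.6% of the 17539 stacks of the whole list. The stacks of 2 or more tags had a ratio of 3.10 (2.99 to 3.22), and the single tags one of 2.03 (1.87 to 2.21), which turned to 0.899 with RLE factors. Within the 75 stacks of 2 or more tags, all tags were male-higher in 43, all were female-higher in 12, and both directions occurred in 20. This split was not counted for the whole list, and 73.2% of all tags of the cluster were male-higher.

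Few stacks carried much of the level. The 5 most counted stacks, with 52 tags, held 43.3% of the male counts and 31.5% of the female counts of the cluster. The 12 most counted held 56.9% in males and 49.8% in females. Of these 12, 10 were higher in males with an interval above 1, 1 was higher in females, and 1 had an interval that included 1.

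**Figure D3:**
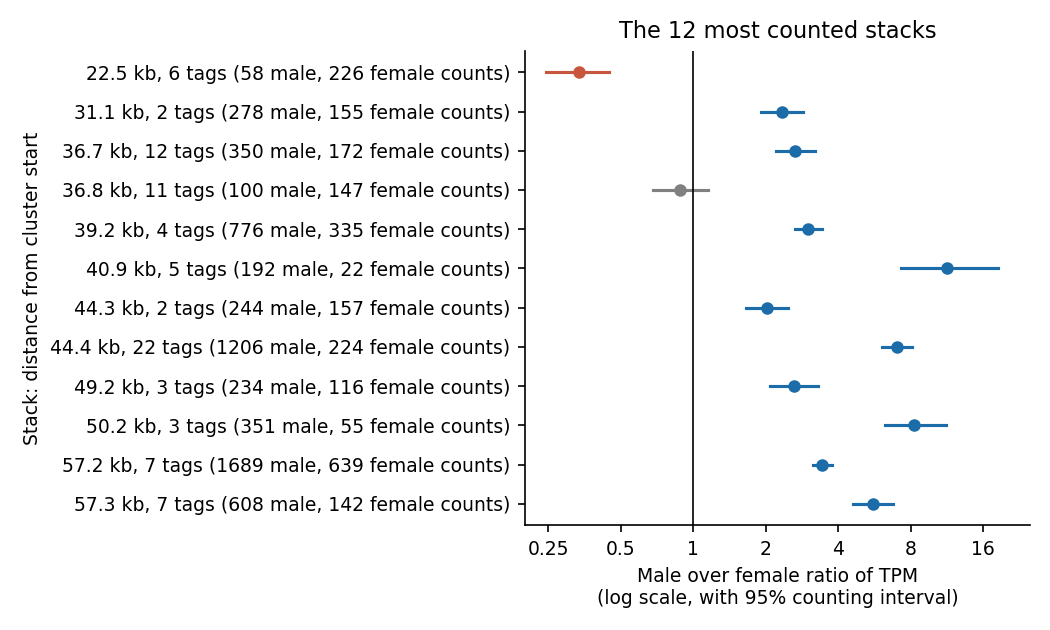
Points give the male over female ratio of TPM of the 12 most counted stacks on a log scale, with 95% counting intervals as lines, ordered by distance from the first base of the cluster. Ratios run from 0.334 at 22.5 kb to 11.3 at 40.9 kb, and the stack at 36.8 kb, in grey, has an interval that includes 1.

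The most counted stack, at 50840996 to 50841052, held 7 tags with 1689 counts in males and 639 counts in females, a ratio of 3.43 (3.13 to 3.77). Its leading tag, the 27-nt t00004325 at 50841026 to 50841052, was the most counted of the cluster, with 742 counts in males and 302 counts in females, or 360 TPM in males against 113 TPM in females. A 26-nt tag with the same start and an end 1 base earlier had 386 counts in males and 151 counts in females. The tags that started 1 base before, at 50841025, had 235 and 104 counts in males against 88 and 38 counts in females. The ratios of these 4 tags, from 3.19 to 3.56, had intervals that overlapped, and differences between them were not tested. Directly upstream in coordinates, the 27-nt tag at 50840999 to 50841025 ended on the base before the leading tag began. It had 168 counts in males and 44 counts in females, a ratio of 4.96 (3.54 to 7.08).

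The stack of high count that followed, at 50841143 to 50841176, had a ratio of 5.56 (4.63 to 6.73), above the interval of its neighbour. Its 7 tags had 608 counts in males and 142 counts in females. The 27-nt tag at 50841145 to 50841171 held most of both, with 471 counts in males and 111 counts in females. A tag 1 base shorter with the same start had 28 counts in males and was listed at 0 in females, the highest such value in the cluster.

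The stack with most tags, at 50828265 to 50828351, held 22, all higher in males. They summed to 1206 counts in males and 224 counts in females, a ratio of 7.0 (6.06 to 8.11). Most of it came from 13 tags that started at 1 of 3 neighbouring bases and ended between 50828289 and 50828293. Those starting at 50828265 had 175 counts in males and 33 counts in females, those starting at 50828266 had 668 in males and 121 in females, and those starting at 50828268 had 248 in males and 40 in females. The ratios of the 3 start positions were 6.89 (4.73 to 10.3), 7.17 (5.90 to 8.78) and 8.06 (5.75 to 11.6), which overlap. Among the 5 tags starting at 50828266, the 24-nt tag had 187 counts in males and 24 counts in females, a ratio of 10.1 (6.60 to 16.2). The 28-nt tag had 238 counts in males and 52 counts in females, a ratio of 5.95 (4.39 to 8.19), and these intervals also overlap. Overlap of intervals is not a test of a difference, and none was run here.

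**Figure D4:**
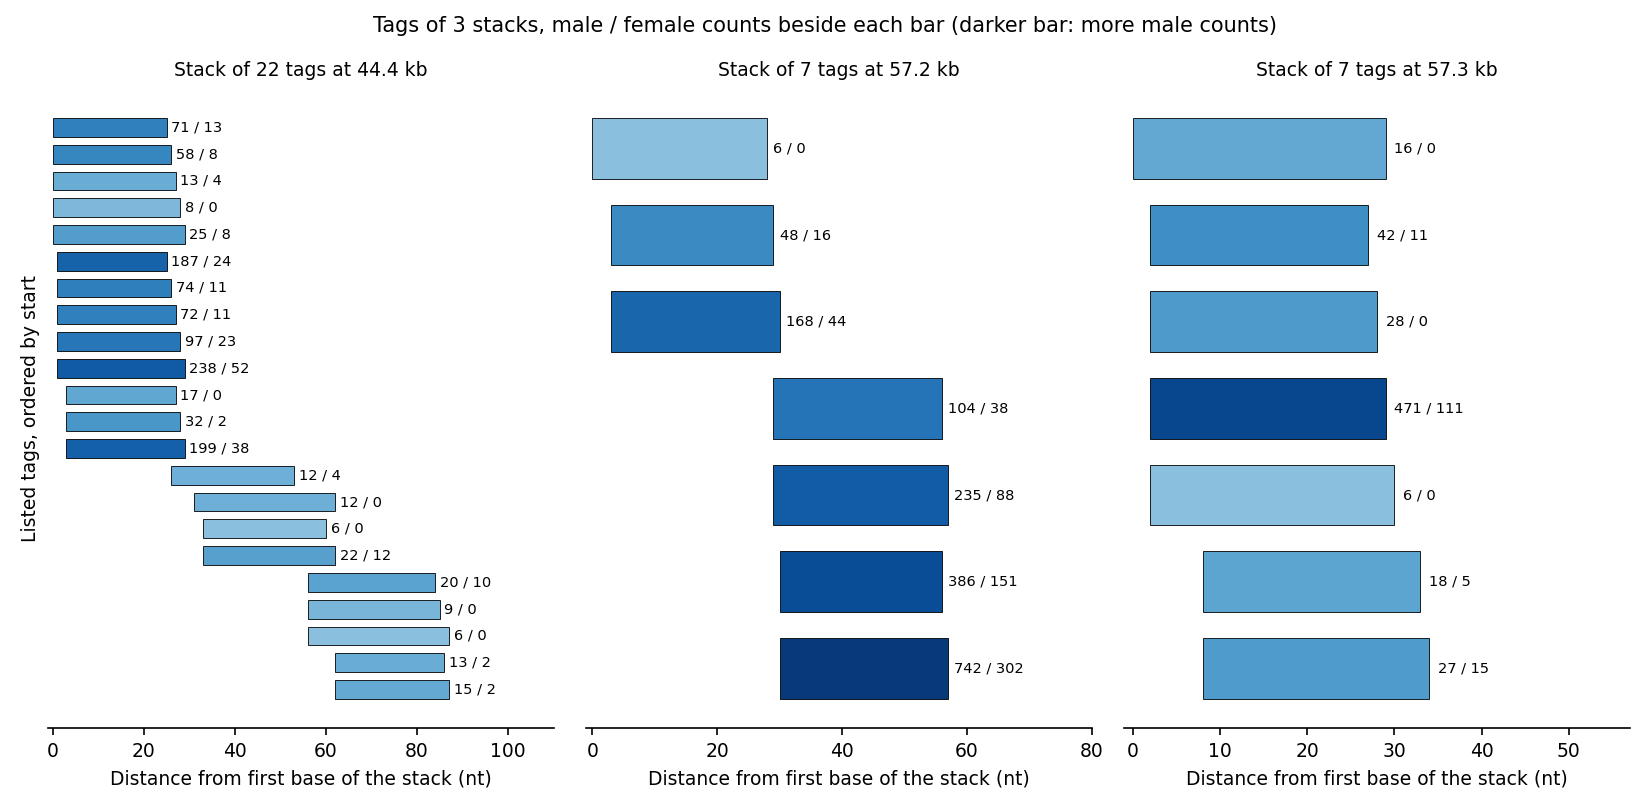
Bars show each listed tag of 3 of the 4 most counted stacks, placed by its distance in nt from the first base of the stack, with male / female counts beside it and darker blue for more male counts. In the stack at 44.4 kb the 13 upper tags share 3 start positions and differ in their ends, and in the stack at 57.2 kb an upper group of tags ends where the lower group begins.

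The third most counted stack rested mostly on a single tag. At 50823059 to 50823093 it had 776 counts in males and 335 counts in females, a ratio of 3.01 (2.64 to 3.43). Of these, the 24-nt tag t00004460 at 50823070 to 50823093 held 697 counts in males and 315 counts in females, the most of any tag of the cluster in females. A set of 3 tags of 28 to 30 nt started 11 bases earlier, at 50823059, and summed to 79 counts in males and 20 counts in females. Its longest member, of 30 nt, had 24 counts in males and was listed at 0 in females.

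Other stacks were further apart. At 50834017 to 50834062 a ratio of 8.29 (6.23 to 11.2) came almost wholly from the 27-nt tag at 50834036 to 50834062, with 335 counts in males and 55 counts in females. At 50824718 to 50824766, 5 tags had 192 counts in males and 22 counts in females, a ratio of 11.3 (7.28 to 18.5). Its most counted tag, of 29 nt at 50824738 to 50824766, had 77 counts in males and 7 counts in females. The largest ratio of a stack with 100 or more counts was found at 50830899 to 50830938, where 4 tags had 151 counts in males and 11 counts in females, a ratio of 17.8 (9.69 to 36.5). It contained the tag with the largest fold among those counted in both sexes, at 50830910 to 50830938, with 42 counts in males and 2 counts in females, a ratio of 27.3 (7.10 to 233). That stack was singled out after its values were seen.

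Other abundant male-higher stacks lay closer to 2-fold. The list holds no tag under 2-fold, so a stack of male-higher tags alone cannot fall below 2. The pair of tags at 50828137 to 50828173 had 244 counts in males and 157 counts in females, a ratio of 2.02 (1.65 to 2.48). Its 25-nt member at 50828137 to 50828161 had 173 counts in males and 111 counts in females. With RLE factors the direction of this pair turned, to a ratio of 0.895. The pair at 50814968 to 50814994 had 278 counts in males and 155 counts in females, a ratio of 2.33 (1.91 to 2.86), and its 26-nt member had 205 counts in males and 120 counts in females. With RLE factors the ratio was 1.03 for this pair and 0.984 for the 26-nt member. At 50832977 to 50833028 the ratio was 2.62 (2.09 to 3.30), with 234 counts in males and 116 counts in females, of which the 27-nt tag at 50832983 to 50833009 held 214 in males and 96 in females. The 12 tags at 50820490 to 50820586 had 350 counts in males and 172 counts in females, a ratio of 2.64 (2.20 to 3.19). Among them the 25-nt tag at 50820522 to 50820546 led, with 135 counts in males and 86 counts in females, a ratio that turned to 0.904 with RLE factors. The stack with a ratio of 2.02 lies in the same 1-kb bin as the 22-tag stack with a ratio of 7.0, so neighbouring stacks could differ beyond their counting intervals.

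Female-higher tags were mostly of lower count, and a compact group of them lay 22 to 23 kb from the first base. In that 1-kb bin all 13 tags were higher in females, with 90 counts in males and 401 counts in females, 3.43-fold (2.72 to 4.36) higher in females. The 6 tags of the stack at 50806333 to 50806415 had 58 counts in males and 226 counts in females, a fold of 3.0 (2.24 to 4.07) toward females. Its 25-nt tag t00032397 at 50806357 to 50806381 had 20 counts in males and 89 counts in females, and its 28-nt tag at 50806360 to 50806387 had 14 counts in males and 45 counts in females. Just before this stack, the 26-nt tag at 50806305 to 50806330 had 21 counts in males and 66 counts in females. The 28-nt tag at 50806124 to 50806151 had 6 counts in males and 47 counts in females, a fold of 6.03 (2.57 to 17.3) toward females. In an unbroken run in coordinate order, 16 neighbouring tags from 50806065 to 50811078 were higher in females, by 3.55-fold (2.82 to 4.49) in sum. The longest run toward males was 62 neighbouring tags from 50828137 to 50832821, with 2428 counts in males and 615 counts in females, a ratio of 5.13 (4.69 to 5.61). Runs were formed by the direction of their tags. Their direction and a summed fold of at least 2 therefore follow from the list and are no evidence.

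Smaller female-higher groups lay inside the male-higher stretch. The female-higher tag with the highest sum of both columns, the 27-nt t00030882 at 50835597 to 50835623, had 27 counts in males and 88 counts in females, 2.51-fold (1.61 to 4.02) higher in females. It belonged to a run of 6 female-higher tags from 50835472 to 50835949 with 32 counts in males and 152 counts in females. The stack at 50820668 to 50820751 held both directions within 84 bases. Its 6 tags between 50820669 and 50820700 had 33 counts in males and 138 counts in females, 3.22-fold (2.19 to 4.86) higher in females, and the most counted of them, of 28 nt, had 20 counts in males and 64 counts in females. These 6 tags form such a run, so their summed fold is no evidence of direction. Overlapping them, a tag at 50820668 to 50820691 had 7 counts in males and was listed at 0 in females. The tag at 50820704 to 50820728 had 29 counts in males and 4 counts in females, and that at 50820723 to 50820751 had 17 counts in males and 5 counts in females. The stack as a whole had 100 counts in males and 147 counts in females, a ratio of 0.884 (0.679 to 1.15). The 8 tags at 50833743 to 50833808 were also mixed, 4 in each direction, with a ratio of 1.88 (1.31 to 2.71) for 78 counts in males and 54 counts in females, which turned to 0.832 with RLE factors. Its leading tag, of 24 nt at 50833770 to 50833793, had 28 counts in males and 12 counts in females.

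Tags listed in a single sex were of low count. The smallest sum of both columns in the whole list was 6, so the lowest counts given here are the floor of the list. The 134 listed in males alone had a median of 8 counts (6 to 28) and held 11.7% of the male counts of the cluster. After the 28 counts at 50841145 to 50841170, the next were 26 counts at 50828399 to 50828423, 24 at 50823059 to 50823088, 23 at 50817091 to 50817117 and 19 at 50826125 to 50826151. The 62 listed in females alone had a median of 7 counts (6 to 35) and held 10.8% of the female counts. The highest, 35 counts (24.4 to 48.7), was at 50817830 to 50817856. It was followed by 16 counts at 50835472 to 50835501, 14 at 50784007 to 50784031, and 13 each at 50804275 to 50804304 and 50837150 to 50837177.

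Tags of the cluster peaked at 27 nt in both sexes, and the length profiles of the sexes were close, with intervals that overlapped at 24 and at 26 to 30 nt but not at 25, 31 or 32 nt. Tags of 27 nt held 33.4% (32.5 to 34.3) of the male counts and 32.6% (31.3 to 34) of the female counts. Tags of 24 or 25 nt held 19.7% (19.0 to 20.5) in males and 20.8% (19.7 to 22) in females. The single tag t00004460 held 697 of the 1092 male counts and 315 of the 432 female counts at 24 nt. Shares and ratios that include 24 nt therefore rest largely on 1 tag. Among all other listed nuclear tags, the sexes stood further apart at 24 or 25 nt, with 22.4% (22.2 to 22.6) of the male counts and 14.6% (14.5 to 14.8) of the female counts. The other large cluster of the same scaffold also had close shares of counts at 24 or 25 nt. They were 12.8% (11.6 to 14.1) in males and 14.2% (13.5 to 15.0) in females. At 27 nt its shares were 31.1% (29.4 to 32.8) in males and 29.3% (28.3 to 30.2) in females. Its intervals did not overlap at 24 nt, with 1.12% in males and 2.20% in females, or at 28 nt, with 14.7% and 17.2%. By length, the male over female ratio of the 395-tag cluster ran from 2.34 (2.11 to 2.60) at 25 nt to 3.28 (2.94 to 3.68) at 24 nt among lengths of 24 to 30 nt. The male-higher share of tags ran from 68.2% at 30 nt to 77.8% at 26 nt over the same lengths. The 7 tags of 31 nt were all male-higher, with 72 counts in males and 12 counts in females. The only 32-nt tag, at 50816690 to 50816721, had 8 counts in males and 32 counts in females.

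**Figure D5:**
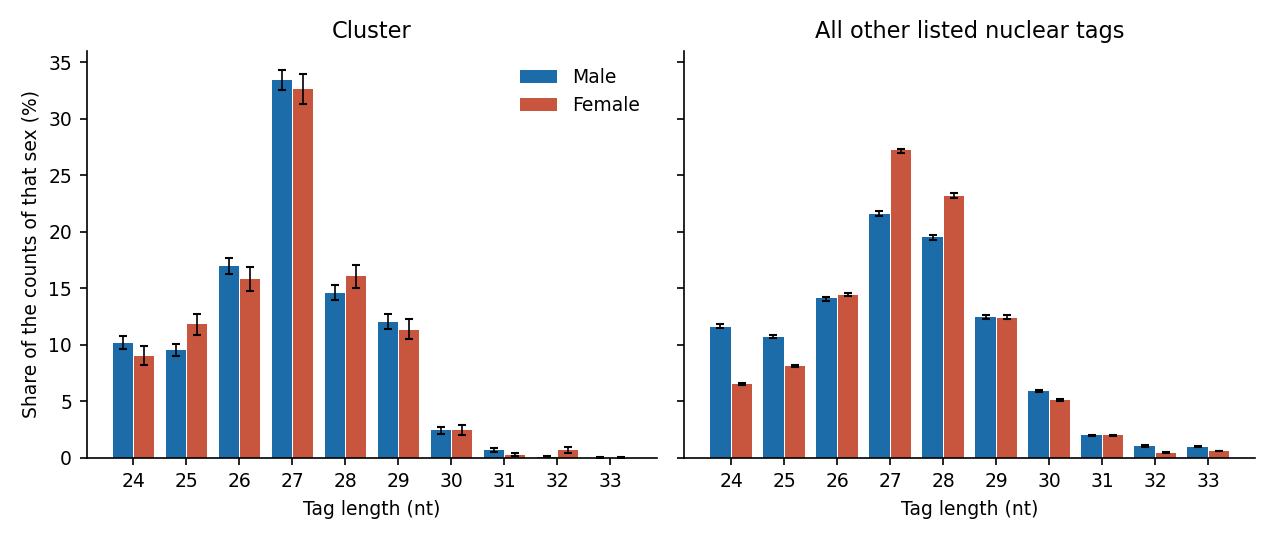
Bars give the share of the counts of each sex by tag length in nt, in the cluster and in all other listed nuclear tags, with 95% counting intervals. In the cluster the bars of the sexes stand close at most lengths, with 33.4% in males and 32.6% in females at 27 nt, while in the other tags they are 21.6% in males and 27.2% in females at that length.

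Tags of a stack shared their start in coordinates more often than their end. In the cluster 128 tags (32.4%) shared their start with another tag, in 52 groups of up to 5, and 59 (14.9%) shared their end, in 27 groups of up to 3. Among the other listed nuclear tags 9.25% shared a start and 10.6% an end. The large cluster at base 50168091 of the same scaffold had the same order, with 28.2% sharing a start and 12.5% an end. So had the clusters on NW_021838599.1, with 19.6% and 9.70%, and on NW_021837489.1, with 19.3% and 5.41%. As strand was not used here, a shared start is the shared 5′ end of the RNAs only if they lie on the forward strand. Tags with one start had one direction in 49 of the 52 groups (94.2%), against 85.9% of such groups in the other listed nuclear tags and 93.5% in the cluster at base 50168091. In each of the other 3 groups, a tag with 6 or 7 counts in 1 sex was listed at 0 in the other sex. The 27 groups that shared an end all had one direction, against 84.7% in the other listed nuclear tags and all 22 in the cluster at base 50168091. In the clusters on NW_021838599.1 and NW_021837489.1, 78.9% and 59.0% of start groups and 81.0% and 81.8% of end groups had one direction. The balance of male-higher and female-higher tags differs between these sets and was not taken into account.

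Directly adjoining tags were the most frequent spacing of 1 to 15 bases. With each start and end position counted once, 14 starts of the cluster lay on the base after an end, against a median of 7 (5 to 12) at each distance of 2 to 15 bases. In the other listed nuclear tags, 220 starts lay on the base after an end, against a median of 111 (79 to 137) at 2 to 15 bases. Overlaps of 10 bases, the mark that the ping-pong cycle of piRNA amplification leaves between opposite strands, occurred in 6 pairs of positions. There were 9, 4, 5 and 5 pairs at 8, 9, 11 and 12 bases. With counts this small, no excess at 10 bases was detectable in the cluster. In the other listed nuclear tags there were 150 pairs at 10 bases, and 113, 122, 142 and 127 at 8, 9, 11 and 12 bases. As strand was not used, pairs on the same strand and on opposite strands are mixed. These counts can therefore neither show nor exclude the mark.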

How the data were processed

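Small RNAs of whole bodies were sequenced in 3 male and 3 female libraries. Per the submitters' processing notes reads were trimmed with Trimmomatic 0.30. For the aligner, the counter, the genome build, the filter behind the list and the pooling of libraries within a sex, no name or setting was given in the sources used here. Counts were deposited as whole numbers per tag and sex. The authors deposited TPM values, which equal the count over a constant column total with no length term, a count of 0 being written as 0.01. The deposited log2 values equal the log2 of male over female TPM, and the smallest absolute value is 1.00. The authors' totals were recovered from the TPM columns.

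With 1 column per sex no test was run. Counts have exact Poisson intervals, ratios exact conditional (Clopper-Pearson) intervals and shares exact Clopper-Pearson intervals, at 95%. The reads carry no molecular identifiers known here and may repeat molecules, so intervals of counts cover counting error only. Shares of tags treat overlapping tags as independent, so their intervals are likely too narrow. The interval code was tested on simulated data. The large clusters set beside this one joined tags at most 10 kb apart. Python 3.11.15, scipy 1.17.1, R 4.3.3 and edgeR 4.0.16 (scaling factors only) were used.

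Named were the 12 most counted stacks, the 6 with most tags, the most counted tag of each, the 10 most counted tags, the 5 most counted per direction and the 5 highest listed in each sex alone. The members and lists were chosen with earlier results of these data known.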

Additional observations from a re-analysis of the deposited data

How the results depend on the processing

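The ratio of 2.90 for the whole cluster stayed above 1 under every scaling tried, with 2.69 when scaled by the sums of listed counts, 2.17 with TMM, 1.28 with RLE and 3.07 with upper quartile factors. These shift all log2 ratios by -0.10, -0.42, -1.17 and 0.08, and rest on listed tags alone, without tags under 2-fold. The RLE shift of -1.17 goes beyond the 2-fold edge of the list, so it turns every male-higher ratio near that edge. The ratio of the whole cluster was 2.68 without the 10 most counted tags, 2.40 without the 5 most counted stacks and 2.64 with 1 tag per stack. In an alternative chosen after seeing the data, it was 3.33 at 30 to 60 kb from the first base and reversed to 0.738 outside that stretch. Of the 799 female counts outside it, 401 lay at 22 to 23 kb. The ratio of the whole cluster was also taken over other sets of tags. Without the most counted tag or stack, with tags of 24 to 30 nt or with 10 or more counts, and with a listed 0 taken as 1, it lay between 2.82 and 2.93. The 289 male-higher tags became 283 with RLE factors, and of the 254 tags with 10 or more counts 197 were male-higher. The 137 male-higher stacks became 89 of 120 when gaps of up to 50 bases were bridged, because fewer stacks are formed, and 168 of 244 when 20 shared bases were required. Of 41 other ratios, 9 reversed. With RLE factors these were 0.984 for the tag at 50814968, 0.897 for the tag at 50828137, 0.904 for the tag at 50820522, 0.895 for the stack at 50828137, 0.832 for the stack at 50833743, 0.899 for the single tags, 0.672 for the first 5 kb and 0.540 for the cluster on NW_021837489.1. The last was also reversed with TMM factors, at 0.913, and the other listed nuclear tags were reversed with upper quartile factors, at 1.03. Among the 41, the scalings of ratios other than those of named tags and stacks were added after seeing the data. Counts of 2 to 10 leave wide intervals, and the spread between mosquitoes was not analysed here. No paired analysis was possible because the table has 1 column per sex.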

Other observations

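Listed tags resumed 18.1 kb after the cluster. In the 40 kb after its last base, 18 tags between 50869558 and 50890181 had 177 counts in males and 95 counts in females, a ratio of 2.42 (1.88 to 3.14). Of these, 13 were higher in males and 5 higher in females.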
